A study of Mus musculus with 10 samples.

Results

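The genes described here are 10 of the 25239 gene symbols in the count table, chosen by symbol as core genes of the ATF4 stress response and of amino acid supply. They are the regulators Atf4, Ddit3 and Trib3, the stress effectors Chac1 and Sesn2, the asparagine synthetase gene Asns, the serine and one-carbon genes Phgdh, Psat1 and Mthfd2, and the amino acid carrier gene Slc7a1. All 10 were found in the table and all 10 passed the count filter in each comparison.

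ATF4 is the transcription factor at the centre of the integrated stress response. When amino acids run short, when unfolded protein builds up in the endoplasmic reticulum or when mitochondria are disturbed, kinases phosphorylate the translation factor eIF2, which slows most protein synthesis while the Atf4 mRNA is translated more. ATF4 protein then switches on genes that make or import amino acids and, under lasting stress, the gene Ddit3, which encodes CHOP. ATF4 is therefore largely set at the level of translation, which RNA counts do not measure. Leydig cells make testosterone in the smooth endoplasmic reticulum and mitochondria.

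The counts are from RNA sequencing of 10 mouse libraries, which fall into 4 groups. The cell line is MLTC-1, derived from a Leydig cell tumour of the mouse, with solvent alone (DMSO, n = 3) or with hymeglusin (n = 3), which blocks HMG-CoA synthase in the cytosol, an early step of cholesterol synthesis. The primary Leydig cells had no treatment and came from testes at 2 months of age (n = 2) or at 24 months (n = 2). The labels name no strain, genotype, dose, treatment time or method of cell isolation, and nothing in them ties a replicate to its own culture or animal. The p-values therefore measure no more than how far these samples spread, and that spread may be technical.

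Total counts ranged from 17407456 to 34787330 per library, and 3 counts corresponded to 0.0845 to 0.219 CPM (counts scaled to library size). In the 24-month libraries the 10 genes with the most counts held 9.65% and 6.64% of the total, against 2.78% to 4.80% elsewhere. The summed level of 8 Leydig cell markers was 8930 to 9179 CPM with DMSO and 6526 to 6679 CPM with hymeglusin. In the primary cells it was 18960 and 17120 CPM at the younger age, and 23420 and 15940 CPM at the older. Of these markers, only Hsd17b3, the last enzyme of testosterone synthesis, was at 0 in any library, and it was at 0 in 2 of the 3 DMSO libraries. It was at 0.0379 CPM in DMSO replicate 3 and at 0.0688, 0.295 and 0.115 CPM with hymeglusin. In the primary cells it stood at 926 to 1122 CPM.

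C/EBP-ATF response elements, composite sites that ATF4 and a C/EBP partner bind, share the core TGATGNAA, in which N is any base. This core was searched on both strands of the RefSeq promoter windows of GRCm38.p6, which run from 250 bases before to 50 bases after a gene's start and are 300 bases long. It was found in 3 of the 10 genes, Chac1, Trib3 and Asns, and in 4.51% of all 27025 genes with such a window, or 3.97% of all windows. These 3 matches are shown 5′ to 3′ because they are the only ones among the 10 genes, with the core in capitals and the flanking bases in lower case.
Chac1 (chr2:119351038-119351067, opposite strand to the gene): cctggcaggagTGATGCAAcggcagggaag
Trib3 (chr2:152344028-152344057, opposite strand to the gene): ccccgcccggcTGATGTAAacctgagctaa
Asns (chr6:7693214-7693243, same strand as the gene): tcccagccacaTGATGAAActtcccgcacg
The core lay at -193 to -186 from the start of Chac1, at -23 to -16 from that of Asns and at +15 to +22 from that of Trib3. The other 7 genes, Atf4 and Ddit3 among them, held no such letters in this window, which leaves introns and more distant sequence unread. The endoplasmic reticulum stress element, CCAAT and CCACG with 9 bases of any kind between them, was found in 0 of the 10 genes and in 0.137% of all genes. The matches describe sequence and do not show that a factor binds there.

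On GRCm38.p6, Atf4 spans chr15:80255184-80257545, Ddit3 chr10:127290793-127296291, Asns chr6:7675165-7693209, Trib3 chr2:152337425-152344060 and Chac1 chr2:119351242-119354326. Psat1 spans chr19:15905123-15925059, Phgdh chr3:98313171-98339969, Mthfd2 chr6:83305704-83326011, Sesn2 chr4:132492804-132510456 and Slc7a1 chr5:148327410-148399904. The longest annotated transcripts ran from 969 bases for Ddit3 to 7179 bases for Slc7a1. Ddit3 overlaps the bounds of Mars1 and Mbd6, and since the strand setting of the counting is not stated, reads from the shared stretches cannot be told apart. Phgdh has 19 other annotated loci at 90% identity or more over at least 200 bases, mostly processed pseudogenes, and Psat1 has 1, so the levels of both are uncertain.

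Levels across the 4 groups were first set on one scale, CPM scaled over all 10 libraries and divided by the longest transcript in kilobases. With DMSO, Phgdh, which encodes the first enzyme of serine synthesis from glycolysis, stood highest at 133 ± 2.88 CPM per kb (SD, n = 3). Atf4 followed at 110 ± 2.73 and Ddit3 at 106 ± 4.54 CPM per kb, and the libraries of these 2 genes overlapped. Below them came Mthfd2, Asns, Slc7a1, Psat1, Sesn2, Trib3 and, lowest, Chac1 at 1.58 ± 0.171 CPM per kb, each separate from its neighbour in all 3 libraries. With hymeglusin, Ddit3 took the first place at 172 ± 8.96 CPM per kb (SD, n = 3), above Phgdh at 136 ± 6.70 and Atf4 at 106 ± 2.81, and Slc7a1 stood above Asns.

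At 2 months, Atf4 stood highest at 128 ± 3.45 CPM per kb (SD, n = 2), then Ddit3 at 65.0 ± 2.77, Mthfd2 at 37.7 ± 1.32 and Slc7a1 at 20.4 ± 0.803. Phgdh was seventh at 10.4 ± 0.229 CPM per kb and overlapped Asns, and Trib3 was lowest at 0.602 ± 0.305. At 24 months, Ddit3 at 229 ± 82.3 CPM per kb and Atf4 at 213 ± 7.80 overlapped at the top. Mthfd2 and Asns followed at 48.1 ± 6.49 and 18.2 ± 2.15 CPM per kb. Slc7a1 was eighth at 2.16 ± 0.813 CPM per kb, in a run from Psat1 to Sesn2 in which each neighbour overlapped the next. On this scale Phgdh, Trib3 and Sesn2 stood higher in every library of the cell line than in any of the primary cells. At 24 months, Slc7a1, Psat1, Sesn2 and Phgdh stood below every library of the other 3 groups. Atf4, Chac1 and Mthfd2 stood above every library of those groups. The share of all genes with such patterns over the 4 groups was not counted, so these orders are no trait of the 10 genes. Between 24 and 2 months alone, 73.8% of all genes tested had groups without overlap, on the scale of that comparison.

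**Figure D1:**
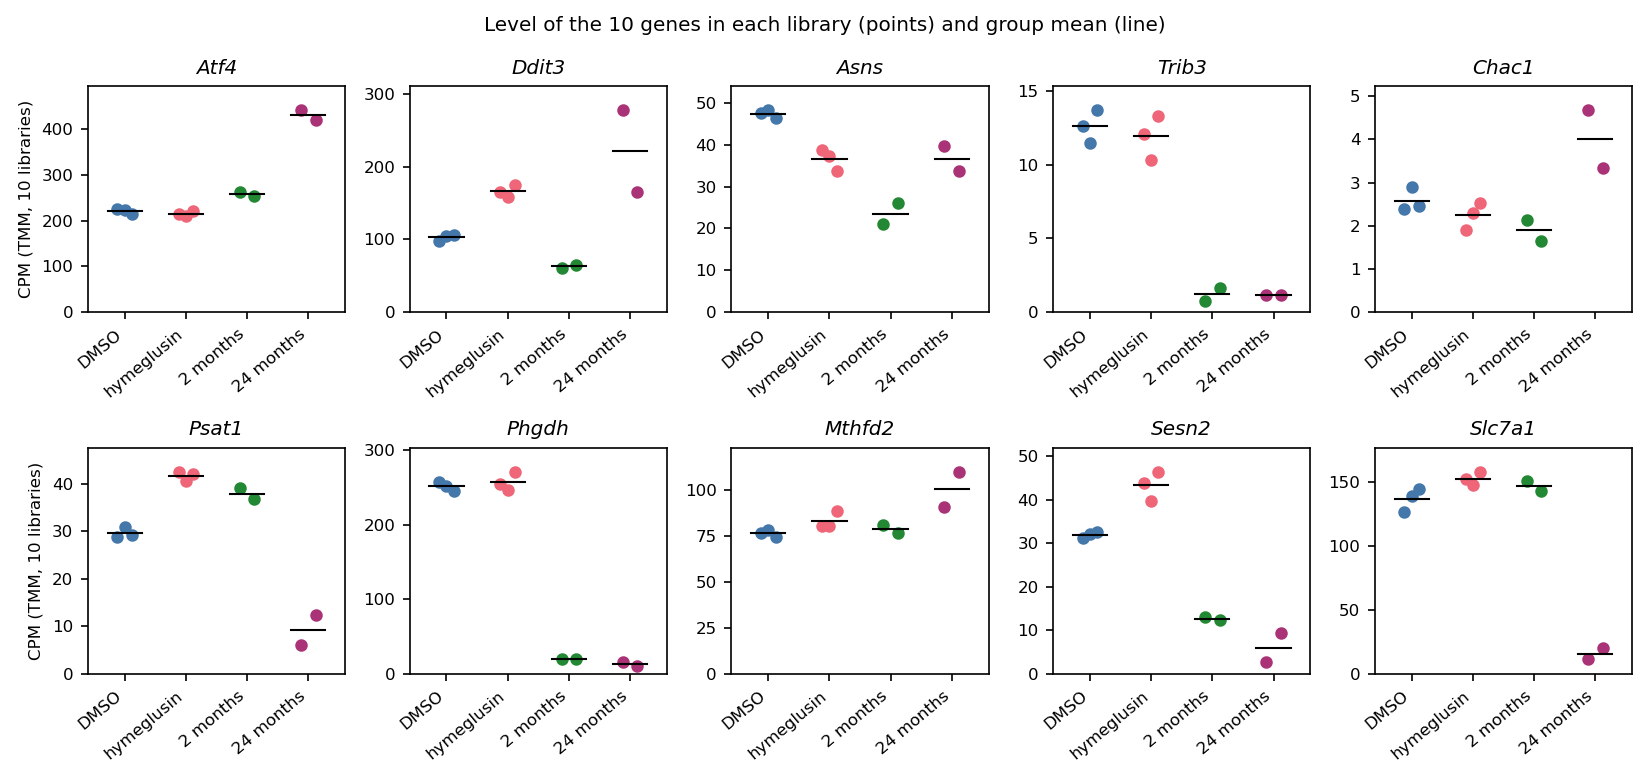
Level of each of the 10 genes in every library (points) with the group mean (line), in CPM scaled over all 10 libraries, for MLTC-1 cells with DMSO or hymeglusin (3 libraries each) and primary Leydig cells at 2 and 24 months (2 libraries each). Each panel has its own axis from 0. Phgdh, Trib3 and Sesn2 are higher in all 6 MLTC-1 libraries than in the primary ones. Slc7a1, Psat1, Sesn2 and Phgdh are lowest, and Atf4, Chac1 and Mthfd2 highest, in both 24-month libraries. The share of all genes with such patterns was not counted.

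The first comparison asked how hymeglusin changed these genes in MLTC-1 cells. The 10 genes did not move together. Ddit3, Psat1 and Sesn2 rose, by 0.36 to 0.61 on the log2 scale, Asns and Atf4 fell, and the other 5 did not pass the test (edgeR's quasi-likelihood test, Benjamini-Hochberg adjusted p under 0.05 over all genes tested). Of 12873 genes tested, 23.8% were called higher and 24.5% lower, and 48.3% in either direction, so 5 of 10 is near the background. The median log2 fold change was -0.01 over the 10 genes and 0.01 over all genes tested. Values below are CPM scaled within the libraries of the comparison.

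Atf4 stood at 243, 235 and 232 CPM with DMSO and at 218, 213 and 219 CPM with hymeglusin. The groups did not overlap, and the fall was small, at -0.13 on the log2 scale (SE 0.047, adjusted p = 0.0248). This call was lost when libraries were scaled by total counts (-0.02, adjusted p = 0.738), in 1 fit of all 10 libraries (adjusted p = 0.886) and under a filter at 10 CPM (adjusted p = 0.0643). It was also lost without DMSO replicate 1, DMSO replicate 2, hymeglusin replicate 1 or hymeglusin replicate 2, at adjusted p of 0.0554, 0.0722, 0.0631 and 0.0609.

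Ddit3, whose product CHOP is a transcription factor of prolonged stress that can promote cell death, stood at 105, 111 and 114 CPM with DMSO and at 168, 161 and 175 CPM with hymeglusin. All 3 treated libraries were above all 3 controls, at 0.61 on the log2 scale (SE 0.051, adjusted p = 3.2e-12). The call held in all 17 alternative settings (log2 0.58 to 0.71, adjusted p 1.02e-28 to 0.0431). The 2 genes that overlap Ddit3 did not pass the test, with log2 fold changes of 0.09 for Mars1 and -0.06 for Mbd6.

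Trib3 encodes a pseudokinase that ATF4 and CHOP induce and that restrains both in turn. It stood at 13.6, 12.1 and 14.7 CPM with DMSO and at 12.3, 10.5 and 13.2 CPM with hymeglusin. The groups overlapped (log2 -0.16, SE 0.106, adjusted p = 0.231). Chac1, an enzyme that breaks down glutathione, stood at 2.55, 3.07 and 2.65 CPM with DMSO and at 1.92, 2.33 and 2.52 CPM with hymeglusin. The treated libraries were all lower, but the difference did not pass the test (log2 -0.29, SE 0.206, adjusted p = 0.257). On the scale of this comparison, groups without overlap were found for 6 of the 10 genes, 3 higher and 3 lower. Of all genes tested, 27.7% were higher without overlap, 27.3% lower and 54.9% either. Which genes these are depends on the scale. On that of all 10 libraries, Atf4 and Chac1 overlapped, while Mthfd2 and Slc7a1 were higher without overlap.

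Asns, which makes asparagine from aspartate and glutamine, fell from 51.0, 51.0 and 49.7 CPM with DMSO to 39.5, 37.9 and 33.6 CPM with hymeglusin. The groups were well apart, at -0.45 on the log2 scale (SE 0.066, adjusted p = 5.44e-07). Psat1, the aminotransferase of the second step of serine synthesis, rose from 30.8, 32.7 and 31.3 CPM to 43.2, 41.1 and 41.7 CPM (log2 0.41, SE 0.066, adjusted p = 3.49e-06). Phgdh, the step before it, overlapped between the groups, at 275, 267 and 264 CPM with DMSO and 259, 250 and 269 CPM with hymeglusin (log2 -0.05, SE 0.047, adjusted p = 0.389). Mthfd2, a mitochondrial enzyme of the folate cycle, also overlapped, at 82.3, 82.6 and 79.8 CPM with DMSO and 81.6, 81.6 and 88.1 CPM with hymeglusin (log2 0.04, SE 0.054, adjusted p = 0.588). Of the first 2 enzymes of serine synthesis, 1 was called higher and 1 was not called, and the difference between them was not tested.

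Sesn2 encodes a leucine-binding protein that holds back the growth kinase complex mTORC1. It rose from 33.4, 33.9 and 34.9 CPM with DMSO to 44.5, 40.4 and 46.2 CPM with hymeglusin (log2 0.36, SE 0.067, adjusted p = 3.15e-05). Slc7a1, a carrier of arginine and lysine, stood at 136, 147 and 155 CPM with DMSO and at 154, 150 and 157 CPM with hymeglusin. These groups overlapped (log2 0.07, SE 0.052, adjusted p = 0.243). The calls of Asns, Psat1 and Sesn2 were lost in 1 of 17 alternative settings, the fit of all 10 libraries, in which the spread of the primary cell libraries entered (adjusted p 0.117, 0.194 and 0.458). Scaling by total counts, which moved the median of all genes tested to 0.11 on the log2 scale and the share of calls that were higher from 49.4% to 70.0%, called Mthfd2 and Slc7a1 higher as well (adjusted p 0.0265 and 0.00331).

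**Figure D2:**
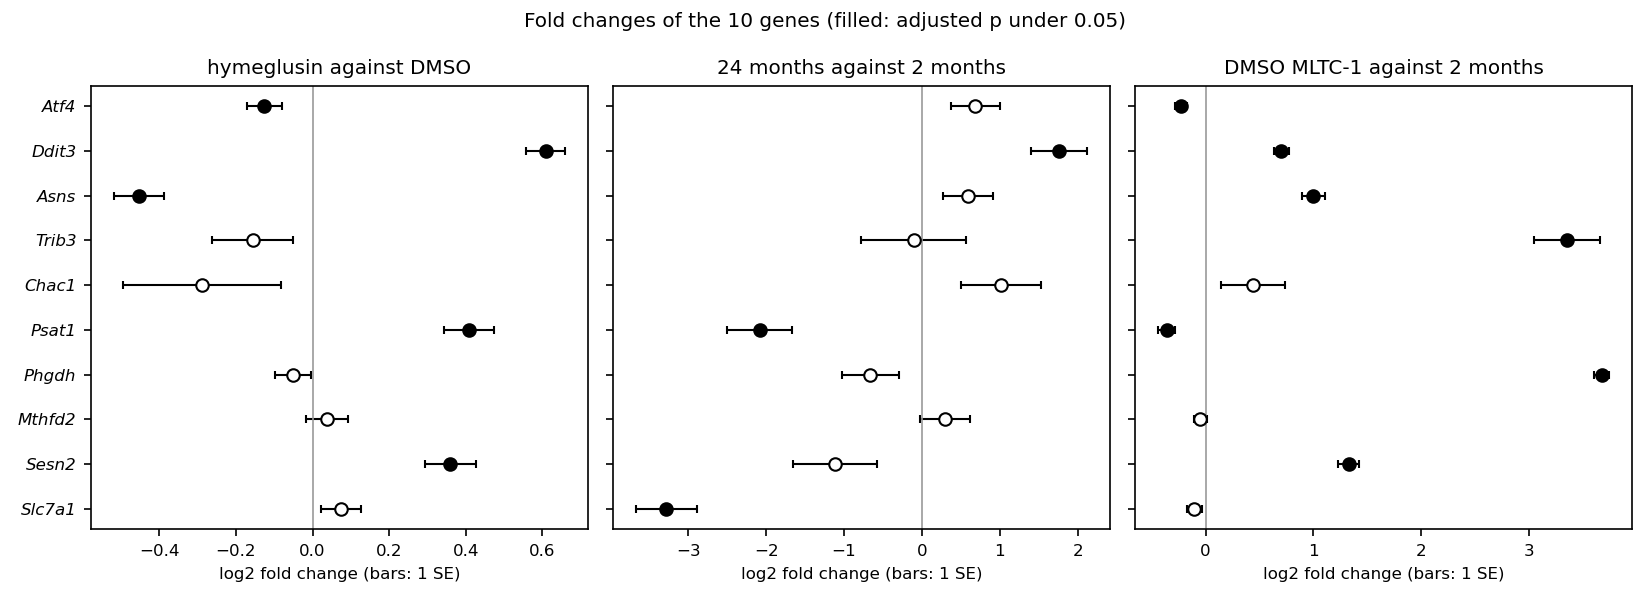
Log2 fold change of each of the 10 genes (point) with 1 SE (bar) in the 3 comparisons; filled points passed an adjusted p of 0.05, and each panel has its own horizontal scale. With hymeglusin all 10 genes lie between -0.45 and 0.61, whereas with age they run from -3.28 for Slc7a1 to 1.76 for Ddit3.

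Other genes of the pathway were read from 9 lists, some of which share genes with each other or hold some of the 10. Of 31 other known ATF4 targets tested with hymeglusin, 3 rose and 16 fell, with a median log2 fold change of -0.27. Mthfd1l, a mitochondrial enzyme of formate production, fell from 162, 157 and 159 CPM to 68.0, 75.9 and 79.5 CPM (log2 -1.09, SE 0.055, adjusted p = 4.8e-18). Ddit4, an inhibitor of mTORC1, fell from 205, 192 and 200 CPM to 118, 103 and 121 CPM (log2 -0.81, adjusted p = 1.17e-14). Atf3, a stress-induced transcription factor, rose from 5.53, 4.73 and 5.78 CPM to 11.7, 13.8 and 12.1 CPM (log2 1.24, SE 0.122, adjusted p = 1.32e-10). Nupr1, a small stress protein, rose by 0.54 on the log2 scale (adjusted p = 3.3e-07). Scaling by total counts left 5 higher and 14 lower, and the fit of all 10 libraries left 2 higher and 2 lower.

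Of 17 enzymes of asparagine, glutamine, proline and arginine metabolism tested, 0 rose and 10 fell, Asns among them (median -0.26), and 0 and 8 did so under total counts. Gpt, alanine aminotransferase, fell from 260, 269 and 269 CPM to 158, 151 and 162 CPM (log2 -0.76, adjusted p = 2.05e-15), and Asl, which releases arginine in the urea cycle, fell by 0.69 on the log2 scale (adjusted p = 9.38e-12). Of 19 enzymes of serine, glycine and one-carbon metabolism, 6 rose and 7 fell (median -0.11). Thymidylate synthase, Tyms, rose by 0.36 (adjusted p = 1.14e-06) and the cytosolic folate enzyme Aldh1l1 fell by 0.86 on the log2 scale (adjusted p = 1.67e-16). In the fit of all 10 libraries, 0 of the 18 enzymes of the first list then tested and 3 of the 21 of the second were called.

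Of 23 amino acid carriers, 2 rose and 9 fell, against 6 and 7 under total counts. Slc43a2, a carrier of large neutral amino acids, rose from 4.93, 5.45 and 5.62 CPM to 10.1, 11.8 and 8.86 CPM (log2 0.94, adjusted p = 2.17e-07). Slc7a8, the light chain of another such carrier, fell by 0.57 on the log2 scale (adjusted p = 1.05e-12). Of 20 cytosolic aminoacyl-tRNA synthetases, which load tRNAs with amino acids, 2 rose and 8 fell, a balance that turned to 8 higher and 1 lower under total counts. Rars was called higher (log2 0.18) and Nars lower (log2 -0.25), both by little. The calls of these 2 lists also mostly went in the fit of all 10 libraries, where 4 of 26 carriers and 0 of 20 synthetases were called.

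Of 16 genes for eIF2 kinases, their regulators, eIF2B and the eIF2 phosphatases, 3 rose and 1 fell, against 7 and 0 under total counts. Eif2ak2, the kinase PKR, rose from 53.1, 50.4 and 52.3 CPM to 81.6, 75.0 and 63.0 CPM (log2 0.50, adjusted p = 5.18e-07), and Impact, an inhibitor of the amino acid sensing kinase GCN2, rose by 0.60 on the log2 scale (adjusted p = 6.53e-07). Of 26 genes of sestrins and mTORC1 amino acid sensing, 5 rose and 5 fell, against 12 and 4 under total counts. Of 12 tribbles, CHOP partners and paralogues, 1 rose and 5 fell (2 and 5 under total counts), with Cebpa, a partner that CHOP binds, at -0.69 on the log2 scale (adjusted p = 3.43e-14). Of 19 genes of the other branches of the unfolded protein response, those of IRE1, XBP1 and ATF6, 2 rose and 6 fell, against 6 and 4 under total counts, with Xbp1 at -0.48 (adjusted p = 2.62e-08) and the chaperone Calr at -0.43 (adjusted p = 3.3e-10). In the fit of all 10 libraries, 0, 0, 1 and 0 genes of these 4 lists were called.

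**Figure D3:**
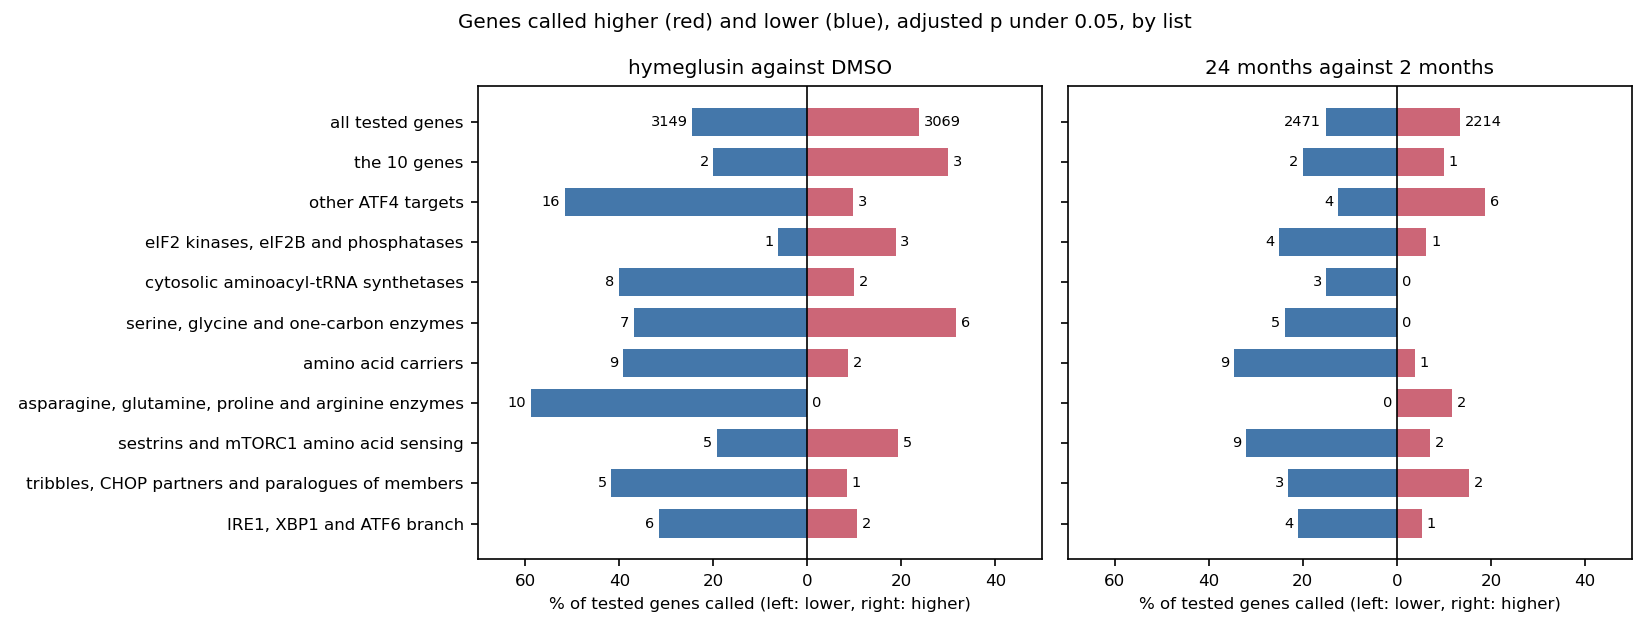
Share of tested genes called higher (right) or lower (left), in percent, for all tested genes, the 10 genes and each of the 9 lists, with hymeglusin and with age; the number beside a bar is the count of genes. With hymeglusin, 16 of 31 other ATF4 targets and 10 of 17 asparagine, glutamine, proline and arginine enzymes are called lower, beside 24.5% of all tested genes.

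The second comparison asked how the 10 genes differed between primary Leydig cells of 24 and of 2 months. Slc7a1 and Psat1 fell and Ddit3 rose, while the other 7 did not pass the test. Of 16381 genes tested, 13.5% were called higher and 15.1% lower, and 28.6% in either direction, beside 3 of the 10. How many of the 10 were called varied with the library left out, as did the calls over all genes tested. The median log2 fold change was 0.10 over the 10 genes and -0.01 over all genes tested. With 2 libraries a group and a biological coefficient of variation of 0.307, against 0.0509 in the MLTC-1 libraries, the SE of the 10 genes ran from 0.32 to 0.67 on the log2 scale.

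Slc7a1 stood at 150 and 133 CPM at 2 months and at 10.6 and 18.4 CPM at 24 months. Both aged libraries were far below both young ones, at -3.28 on the log2 scale (SE 0.393, adjusted p = 0.00246). The call held in all 15 alternative settings (adjusted p 7.84e-15 to 0.0251), and with an offset for transcript length the log2 fold change was -2.14. Psat1 stood at 38.7 and 34.3 CPM at 2 months and at 5.56 and 11.5 CPM at 24 months. It was lower in both aged libraries (log2 -2.08, SE 0.412, adjusted p = 0.0115), also called in all 15 settings (log2 -2.77 to -1.71, adjusted p 1.3e-06 to 0.0456). Without 24 months replicate 2, in which Psat1 was the higher of the pair, its log2 fold change was -2.77.

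Ddit3 stood at 60.8 and 60.6 CPM at 2 months and at 258 and 154 CPM at 24 months. Both aged libraries were above both young ones, and they differed widely from each other (log2 1.76, SE 0.362, adjusted p = 0.0125). The call was lost with the length offset (log2 0.66, adjusted p = 0.15) and with a length and GC offset (log2 0.74, adjusted p = 0.0506). It was also lost without 2 months replicate 1 (adjusted p = 0.135) or 2 months replicate 2 (adjusted p = 0.11). The range over 15 settings was 1.37e-05 to 0.188. Of the 2 overlapping genes, Mars1 did not pass the test (log2 -0.34) and Mbd6 fell (log2 -1.06, adjusted p = 0.035).

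Fold changes with age followed transcript length across all genes, a measure that moves with these calls. Among the tenth of genes with the shortest transcripts, 55 to 1110 bases, which holds Ddit3, the median log2 fold change was 1.41 and 50.8% were called higher. In the tenth with the longest transcripts, from 6572 bases, which holds Slc7a1, the median was -1.41 and 54.6% were called lower. In the tenth that holds Psat1 the median was 0.21. Without the length offset Ddit3 and Slc7a1 lay on the same side as the genes of their own length, and Psat1 lay on the opposite side. What part length has in these values was not tested beyond the offsets.

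**Figure D4:**
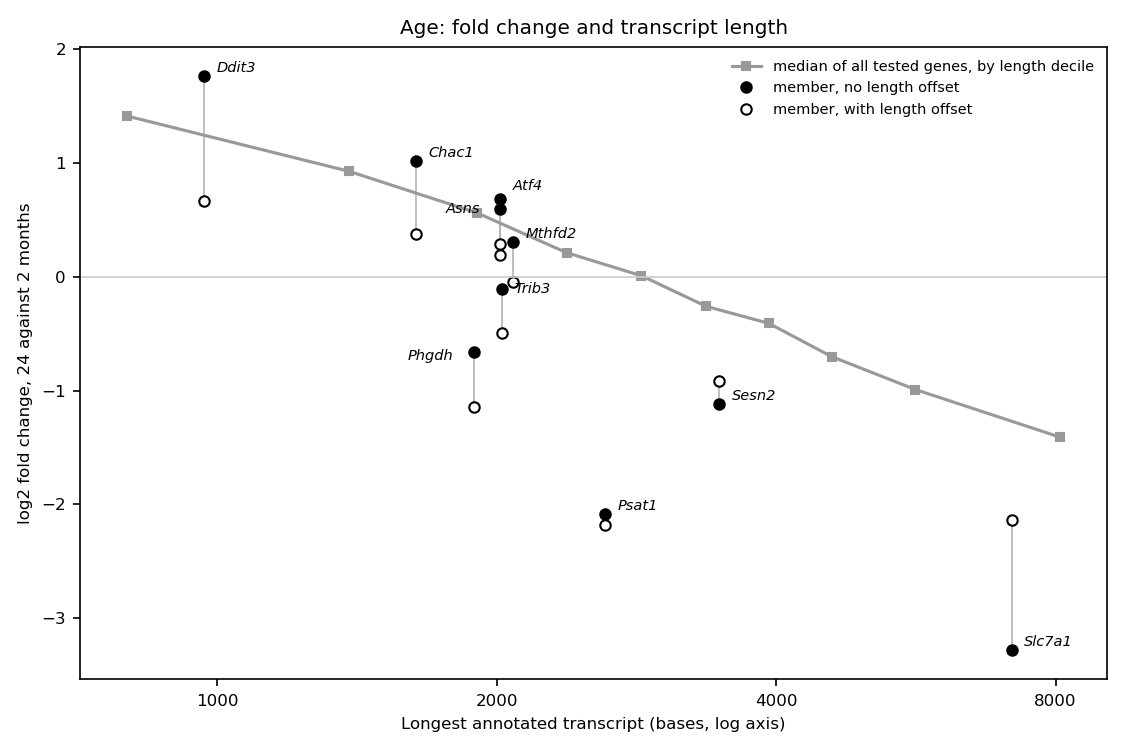
Log2 fold change with age of the 10 genes against the longest annotated transcript (bases, log axis), without (filled) and with (open) an offset for length; the grey line joins the medians of all tested genes in 10 length classes. The line falls from 1.41 to -1.41; Ddit3 moves from 1.76 to 0.66 and Slc7a1 from -3.28 to -2.14 with the offset, whereas Psat1 moves from -2.08 to -2.18.

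Atf4 stood at 262 and 237 CPM at 2 months and at 409 and 392 CPM at 24 months. The groups did not overlap, but the difference did not pass the test (log2 0.69, SE 0.316, adjusted p = 0.126), and with the length offset it was 0.29 on the log2 scale. It was called without 24 months replicate 1 (adjusted p = 0.0138) or replicate 2 (adjusted p = 0.00728), where 1 aged library is assumed to vary like the young pair. Chac1 stood at 2.13 and 1.55 CPM at 2 months and at 4.34 and 3.11 CPM at 24 months (log2 1.01, adjusted p = 0.16). Trib3 was near 1 CPM in all 4 libraries, at 0.777 and 1.55 CPM and at 1.08 and 1.08 CPM, and its groups overlapped (log2 -0.11, adjusted p = 0.917). Sesn2 stood at 12.9 and 11.5 CPM at 2 months and at 2.44 and 8.67 CPM at 24 months. Its aged libraries disagreed in size (log2 -1.12, SE 0.544, adjusted p = 0.145), and the log2 fold change was -2.38 (adjusted p = 0.000387) without 24 months replicate 2 and -0.54 without 24 months replicate 1.

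Asns stood at 20.9 and 24.4 CPM at 2 months and at 36.9 and 31.4 CPM at 24 months (log2 0.59, adjusted p = 0.184), and was called without 24 months replicate 2 (adjusted p = 0.0223). Phgdh stood at 19.2 and 18.6 CPM at 2 months and at 14.5 and 9.42 CPM at 24 months. Its fold change did not pass the test (log2 -0.66, adjusted p = 0.189), but did with the length offset (log2 -1.15, adjusted p = 0.0348), also with GC or the block added. Without 24 months replicate 1 the log2 fold change of Phgdh was -1.05. Mthfd2 stood at 80.1 and 71.6 CPM at 2 months and at 84.1 and 103 CPM at 24 months (log2 0.30, adjusted p = 0.49). In the fit of all 10 libraries every one of the 10 genes but Trib3 was called, beside 4309 genes higher and 4559 lower of 17109 tested. Sesn2 was also called with no count filter. Groups without overlap were found for 9 of the 10 genes, Trib3 being the exception, with 5 higher and 4 lower. Of all genes tested, 35.9% were higher without overlap, 37.9% lower and 73.8% either.

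In a bulk library, fewer cells of a type and less RNA per cell cannot be told apart, and markers of other cells moved with age. Summed germ cell markers stood at 1431 and 1903 CPM at 2 months and at 9271 and 4632 CPM at 24 months, and 5 of 10 were called higher. These 5 were Acrv1 and Prm1, Prm2, Tnp1 and Tnp2, and the last 4 held most of the sum. The other 5 were not called, with Ddx4 at -0.51, Zbtb16 at -0.68, Dazl at 0.14, Sycp3 at 0.37 and Stra8 at 1.48 on the log2 scale. Macrophage markers stood at 54.2 and 68.2 CPM and then at 303 and 265 CPM, with 6 of 10 tested called higher. Of these 6, Cd14 and Aif1 held most of the sum, and the rest were Lyz2, C1qa, C1qb and C1qc. Adgre1, Cd68, Csf1r and Mrc1 were not called, at -1.18, 1.01, 0.19 and 0.05 on the log2 scale. Neutrophil markers stood at 0.206 and 0.158 CPM and then at 5.92 and 55.7 CPM, with 2 of 2 tested called higher. Fibroblast markers stood at 395 and 410 CPM and then at 76.1 and 149 CPM, with 1 of 4 called higher and 2 lower. The 2 lower, Dcn and Pdgfra, held nearly all of the sum. Lum, called higher, was at 0.0823 and 0.355 CPM at 2 months, and Col1a1 was not called (log2 0.65). Peritubular myoid markers stood at 3.95 and 4.85 CPM and then at 20.4 and 6.17 CPM, with 1 of 4 tested called higher, while 0 of 7 Sertoli cell markers, 0 of 3 endothelial markers and 0 of 1 lymphocyte markers tested were called. Of 8 Leydig cell markers, 1 was called higher and 1 lower. The part of these cells in the values of Slc7a1, Psat1 and Ddit3 was not tested.

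Of 32 other ATF4 targets tested with age, 6 rose and 4 fell (median 0.08). Atf3 rose from 24.3 and 30.3 CPM to 221 and 303 CPM (log2 3.26, SE 0.364, adjusted p = 0.00182; 2.86 with the length offset). Cebpb, a partner of CHOP, rose from 69.6 and 65.9 CPM to 419 and 366 CPM (log2 2.53, adjusted p = 0.00343; 1.82 with the offset). Slc7a11, the cystine carrier, fell from 184 and 158 CPM to 18.3 and 38.8 CPM (log2 -2.58, adjusted p = 0.00722; -1.26 with the offset). Aldh1l2, a mitochondrial folate enzyme, fell by 2.49 on the log2 scale (adjusted p = 0.00901), and by 1.54 with the offset. With the offset 6 of the list were called higher and 2 lower. Calls of the list depended on the libraries kept: 3 and 2 without 2 months replicate 1, 2 and 2 without 2 months replicate 2, 9 and 9 without 24 months replicate 1, and 12 and 8 without 24 months replicate 2. The other 8 lists likewise had fewer or as many calls when either 2-month library was left out, and as many or more when either 24-month library was.

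Of 26 amino acid carriers, 1 rose and 9 fell, Slc7a1 among the latter, against 2 and 4 with the length offset. Slc38a1, a glutamine carrier, fell from 114 and 80.6 CPM to 7.18 and 12.6 CPM (log2 -3.30, SE 0.41, adjusted p = 0.00281; -2.14 with the offset). Slc7a2, a related carrier of arginine and lysine, fell from 197 and 152 CPM to 23.1 and 45.8 CPM (log2 -2.34, adjusted p = 0.00906; -1.12 with the offset). Of 13 tribbles, CHOP partners and paralogues, 2 rose and 3 fell. Trib2, a pseudokinase related to Trib3, fell from 32.0 and 29.1 CPM to 1.63 and 2.49 CPM (log2 -3.87, SE 0.405, adjusted p = 0.00142; -3.41 with the offset). Cebpd rose from 156 and 196 CPM to 874 and 913 CPM (log2 2.34, adjusted p = 0.00497; 2.68 with the offset), a call lost without 2 months replicate 1 (adjusted p = 0.088).

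Of 21 serine, glycine and one-carbon enzymes, 0 rose and 5 fell, Psat1 among them, against 0 and 3 with the length offset. Mtr, methionine synthase, fell from 41.2 and 36.8 CPM to 7.18 and 10.2 CPM (log2 -2.16, adjusted p = 0.00722), a call that was lost with the offset (-0.86, adjusted p = 0.0733). Of 20 synthetases, 0 rose and 3 fell, with Eprs at -1.86 (adjusted p = 0.00915; 0.0628 without 2 months replicate 1), and at -0.96 with the offset. Of 17 asparagine, glutamine, proline and arginine enzymes, 2 rose and 0 fell, and Gpt rose from 7.04 and 4.60 CPM to 42.3 and 19.8 CPM (log2 2.41, adjusted p = 0.0103; 0.0517 without 2 months replicate 2), the opposite direction from that with hymeglusin, in other cells. The difference between the 2 comparisons was not tested.

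Of 16 eIF2 pathway genes, 1 rose and 4 fell. Ppp1r15a, the inducible subunit that directs the phosphatase to eIF2, rose from 101 and 118 CPM to 361 and 282 CPM (log2 1.55, adjusted p = 0.0137; 1.54 with the offset), a call lost without either 2-month library (highest adjusted p = 0.25). Eif2ak2 was called lower at -1.97 on the log2 scale (adjusted p = 0.0105; 0.069 without 2 months replicate 1). Of 28 genes of sestrins and mTORC1 sensing, 2 rose and 9 fell, and 2 and 2 were called with the offset. Of 19 genes of the IRE1, XBP1 and ATF6 branches, 1 rose and 4 fell, and 0 and 2 were called with the offset. Ern1, which encodes the stress sensor IRE1, fell from 108 and 106 CPM to 6.85 and 17.2 CPM (log2 -3.15, adjusted p = 0.00531; -2.08 with the offset).

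The third comparison set the cell line with DMSO against the primary cells of 2 months, to show how the line stands as a model for these genes. It uses the control libraries of both comparisons above, and cell line, culture and any difference between preparations cannot be told apart. Phgdh, Trib3, Sesn2, Asns and Ddit3 were higher in the line, Psat1 and Atf4 were lower, and Chac1, Mthfd2 and Slc7a1 did not pass the test. Of 16092 genes tested, 34.4% were called higher, 48.5% lower and 82.8% in either direction, beside 7 of the 10. The median log2 fold change was 0.57 over the 10 genes and -0.27 over all genes tested.

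Phgdh stood at 265, 258 and 255 CPM with DMSO and at 19.8 and 20.8 CPM at 2 months. All 3 line libraries were far above both primary ones (log2 3.67, SE 0.07, adjusted p = 7.08e-10). Trib3 stood at 13.1, 11.7 and 14.2 CPM and at 0.802 and 1.73 CPM (log2 3.35, SE 0.306, adjusted p = 7.33e-06). Sesn2 stood at 32.2, 32.7 and 33.7 CPM and at 13.3 and 12.9 CPM (log2 1.33, SE 0.097, adjusted p = 1.7e-06).

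Asns stood at 49.1, 49.3 and 48.0 CPM with DMSO and at 21.5 and 27.3 CPM at 2 months (log2 0.999, SE 0.108, adjusted p = 2.34e-05). Ddit3 stood at 101, 107 and 110 CPM and at 62.7 and 67.9 CPM (log2 0.70, SE 0.07, adjusted p = 1.35e-05). Ddit3 was at 1.75 on the log2 scale with the length offset and at 1.95 with the length and GC offset. Both genes that overlap Ddit3 were also higher in the line, Mbd6 at 2.17 (adjusted p = 1.94e-08) and Mars1 at 0.64 (adjusted p = 1.16e-05) on the log2 scale, and the share of their reads in the Ddit3 counts was not tested. The calls of Phgdh, Trib3, Sesn2, Asns and Ddit3 held in every alternative setting run. Psat1 stood at 29.7, 31.6 and 30.2 CPM and at 39.96 and 38.4 CPM (log2 -0.36, SE 0.082, adjusted p = 0.00268). This call was lost in the fit of all 10 libraries (adjusted p = 0.173), with the length offset, alone or with the block (adjusted p = 0.995 and 0.988), and with the length and GC offset (log2 0.093, adjusted p = 0.326). Atf4 stood at 234, 227 and 223 CPM and at 270 and 265 CPM (log2 -0.23, SE 0.054, adjusted p = 0.00345), and with the length offset it was called higher, at 0.22. Its call was lost in the fit of all 10 libraries (adjusted p = 0.0609) and with the length and GC offset (adjusted p = 0.718).

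Slc7a1 was at 131, 142 and 149 CPM with DMSO and at 154 and 149 CPM at 2 months (log2 -0.11, SE 0.069, adjusted p = 0.184). It was called lower under the filter at 10 CPM (log2 -0.27, adjusted p = 0.00643) and with the length offset (log2 -0.24, adjusted p = 0.0107), also with GC or the block added. Mthfd2 was at 79.3, 79.9 and 77.0 CPM and at 82.6 and 80.2 CPM (log2 -0.05, adjusted p = 0.479), and it was called higher with the length offset, at 0.39, and lower under the filter at 10 CPM, at -0.21. Chac1 was at 2.46, 2.96 and 2.55 CPM and at 2.19 and 1.73 CPM (log2 0.44, adjusted p = 0.196), and was called higher with the length offset (log2 0.98, adjusted p = 0.0126), also with the block added (adjusted p = 0.0271). Groups without overlap were found for 9 of the 10 genes, 6 higher and 3 lower. On the scale of all 10 libraries, Mthfd2 overlapped as well as Slc7a1. Of all genes tested, 37.7% were higher without overlap, 51.7% lower and 89.4% either.

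Of 20 synthetases, 16 were higher in the line and 1 lower, with Gars at 203, 203 and 205 CPM against 72.4 and 70.8 CPM (log2 1.51, adjusted p = 3.1e-08). Of 32 other ATF4 targets, 17 were higher and 12 lower. Mthfd1l stood at 156, 152 and 153 CPM against 18.1 and 15.1 CPM (log2 3.21, adjusted p = 4.99e-09), and Gpt2, the mitochondrial alanine aminotransferase, at 115, 125 and 112 CPM against 1302 and 1157 CPM (log2 -3.39, adjusted p = 1.44e-09). Of 21 serine, glycine and one-carbon enzymes, 10 were higher and 9 lower, and of 25 carriers 8 were higher and 13 lower. Of 18 asparagine, glutamine, proline and arginine enzymes, 10 were higher and 4 lower, with Glul, glutamine synthetase, at 170, 172 and 175 CPM against 3312 and 2844 CPM (log2 -4.16, adjusted p = 5.38e-10).

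Of 28 genes of sestrins and mTORC1 sensing, 15 were higher and 5 lower, of 16 eIF2 pathway genes 6 and 5, of 13 tribbles, CHOP partners and paralogues 7 and 3, and of 19 genes of the IRE1, XBP1 and ATF6 branches 7 and 9. Trib2 was higher in the line (log2 2.13, adjusted p = 1.39e-08), as was Trib3, while Trib1 was lower (log2 -2.49, adjusted p = 6.23e-07). Summed macrophage and germ cell markers stood at 0.644 to 1.07 CPM and 4.32 to 5.07 CPM with DMSO, far below the primary cells, and their part in the differences was not tested.

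Among 8850 genes outside all lists with a mean of at least 16 CPM, the 5 with the profile most like the mean of the 10 genes over the 10 libraries were Pmpca, U2af2, Gosr2, Cc2d1b and Inpp5e. Their root mean square difference from that mean, in log2 CPM centred per gene, was 0.0632, 0.0712, 0.0767, 0.0769 and 0.0818. The 10 genes themselves differed from their own mean by 0.481 for Asns to 1.41 for Phgdh, with a median of 0.811. The 5 genes were taken as the nearest of all candidates, so their closeness to that mean is set by the choice.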

How the data were processed

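The deposited values are raw read counts per gene symbol, made by the authors from reads on the mm10 build. The submitters' processing notes name HISAT2 2.2.1, featureCounts 2.0.6, fastp 0.23.4 and FastQC 0.12.1, and the sources used here give neither their options nor the annotation. RNA was total RNA in NEBNext Ultra libraries, per the labels' protocols. The table held 25239 symbols, 0 of them duplicated, and 0 value columns without a sample. Replicate pairs differed beyond sampling noise (chi-square per degree of freedom 3.44 to 134).

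Each comparison was fitted on its own libraries with edgeR 4.0.16 in R 4.3.3: filterByExpr (minimum count 10, minimum total 15), TMM scaling, robust quasi-likelihood F-test, two-sided, Benjamini-Hochberg adjustment over all genes tested, threshold 0.05. Adjusted p-values are those of this test, except where a setting is named. The SE is the log2 fold change divided by the square root of F. CPM beside a comparison are scaled by TMM within its libraries, and levels across groups, marker sums and profiles by TMM over all 10 libraries.

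Alternatives were RLE scaling, total counts, DESeq2 1.42.0, limma-voom (limma 3.58.1), no count filter, a filter at a mean of 10 CPM, 1 fit of all 10 libraries, the replicate number as a block, loess offsets (span 0.3) for the longest GENCODE M21 transcript and its GC content, and leaving out each library. A length was found for 97.8% to 98.2% of tested genes. Where a group was left with 1 library, it was assumed to vary like the others. Fits were tested on simulated data. A count of 0 allows up to 3 counts, a floor that covers counting error only.

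Named genes were the 10, up to 2 genes per list, direction and comparison by adjusted p with a mean of at least 4 CPM, and the 5 nearest profiles, leaving out clone names and pseudogenes; not all are reported. Mars1 and Mbd6 were read as overlapping genes. The 10 genes and all lists were chosen with earlier results of these data known, so counts over them are descriptions. Sequences are from RefSeq (GRCm38.p6), in which all 10 genes had a window.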

Additional observations from a re-analysis of the deposited data

How the results depend on the processing

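Depth limits Chac1 and Trib3, which stood under 5 CPM and near 1 CPM in the primary cells. Group levels of the 10 genes scaled by library totals moved by less than 1 SD in 25 of 40 cases and by more in 15. With hymeglusin, the 3 higher and 2 lower of the 10 became 5 and 1 under total counts, 1 and 0 in the fit of all 10 libraries, and 3 and 1 under the 10 CPM filter; leaving out a library gave 3 higher in each case and 1 to 2 lower. Over all genes, 3069 higher and 3149 lower became 4659 and 1996 under total counts and 645 and 289 in the fit of all 10 libraries; leaving out a library gave 2644 to 2913 and 2753 to 3074.

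With age, the 1 higher and 2 lower of the 10 became 5 and 4 in the fit of all 10 libraries and 0 higher with the length offset, the length and GC offset and the replicate block with length offset; leaving out a library gave 0 to 3 higher and 2 to 3 lower. Over all genes, 2214 higher and 2471 lower became 531 and 1301 under total counts (29.0% of calls higher, from 47.3%), 4309 and 4559 in the fit of all 10 libraries, 1470 and 986 with the length offset, 1581 lower with the length and GC offset and 1275 lower with the block and length offset. Leaving out a library gave 239 to 4259 higher and 602 to 5628 lower, the lowest without 2 months replicate 1 and the highest without 24 months replicate 2. The causes were not tested.

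For the line against 2 months, the 5 higher and 2 lower of the 10 became 8 and 1 with the length offset, alone or with the block. Over all genes, 5534 higher and 7797 lower became 6678 and 6771 with that offset, and 6466 and 6516 with the block added. Of the 10, 1 was lower with the length and GC offset, 0 in the fit of all 10 libraries and 4 under the 10 CPM filter. That filter left 4413 genes lower, from 7797. Leaving out a library gave 5 higher and 2 lower in each case. Signs turned with the length offset, the length and GC offset and the block with length offset for Atf4 (0.22, 0.023 and 0.23) and Mthfd2 (0.39, 0.40 and 0.40), and with the last 2 for Psat1 (0.093 and 0.0023); the offset moved the median of all genes from -0.27 to -0.01.

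Deviations of same-numbered libraries from their group means had correlations of 0.000352, -0.0255 and 0.0548 with hymeglusin and -0.0924 with age. With 2 libraries a group the deviations are mirror images, so the age value cannot show whether the number pairs libraries. The low values with hymeglusin do not exclude pairing either. With the replicate number as a block, 3127 genes were higher and 3233 lower with hymeglusin, 2088 and 2686 with age, and 5305 and 7501 in the line, and the counts of the 10 genes stayed at 3 and 2, 1 and 2, and 5 and 2.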
